A study of Mus musculus with 2 samples.

Results

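The genes described here are 32 genes of cholesterol and fatty acid synthesis, of 24022 genes that could be tested in AIMP3-depleted mouse embryonic stem cells (mESCs). They were chosen by symbol, through the accession that each array probe carries. The rule used no measured value, although the set was chosen with earlier results of these data known. They comprise 7 genes of the mevalonate steps, 11 of the steps from squalene on, 5 that control SREBP (sterol regulatory element-binding protein), 3 of sterol transport and export, and 6 of fatty acid synthesis. AIMP3, the product of *Eef1e1*, is a scaffold protein of the complex that holds several aminoacyl-tRNA synthetases together. All cells in both groups were AIMP3f/f;cre-ERT2 mESCs, derived from blastocysts, in which both *AIMP3* alleles carry loxP sites and a Cre recombinase is switched on by tamoxifen. The depleted group (2 replicates) received 2 μM tamoxifen (4-OHT) and the control group ethanol, each for 4 days in medium with LIF. Control RNA came from 2 replicates mixed into 1 pool, which carried Cy3 on both arrays, whereas RNA of the depleted replicates carried Cy5, 1 replicate on each array. The control is therefore 1 sample, its spread between cultures is not measured, and no source used here says whether the replicates came from separate cultures, so that p-values cover only the spread between these 2 arrays.

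Dyes were not swapped, and no tamoxifen-treated cells without the floxed alleles were analysed here. The loss of AIMP3, the drug with the recombinase it activates, and a gene-specific difference between the dyes therefore cannot be told apart. The cells were generally kept on feeder layers of mouse embryonic fibroblasts, and for drug treatment in medium conditioned by such cells. Both arrays lay on 1 slide and were read in 1 scan. Values are log2 ratios of depleted over control, in which 0 is no difference and -1 is a fall to the level of 50%. The direction follows the dyes in the labels, although the methods describe a ratio of control over test. The deleted gene itself, *Eef1e1*, had a log2 ratio of -0.90 on both arrays (adjusted p = 4.76e-05 by limma). The median SD between the arrays was 0.048 over all genes, and the median log2 ratio of all genes was 0.02.

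Cholesterol is built in the cytosol and the endoplasmic reticulum from acetyl-CoA, first through mevalonate to farnesyl pyrophosphate, then through squalene, which is closed into lanosterol and trimmed to cholesterol. When membrane sterol is low, Scap escorts SREBP to the Golgi, where proteases release a transcription factor that switches on nearly every gene of the route. When sterol is plentiful, Insig proteins hold Scap and SREBP back, and oxidized sterols activate LXR (liver X receptor), which switches on the sterol exporters *Abca1* and *Abcg1*. The same SREBP family drives the synthesis of fatty acids, with the product of *Srebf1* acting more on fatty acids and that of *Srebf2* more on sterols. Proliferating stem cells are known to make much of their own sterol and fatty acid, for membranes and for the prenyl anchors of signalling proteins.

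All 32 genes were tested, and all 32 were well above background in both channels on both arrays, so none entered through the group in which it was higher. By the threshold of 1.5-fold with an unadjusted p under 0.05, 2 of the 32 genes were lowered, *Abcg1* and *Insig1*, against 0.791% of all genes tested, and 0 were raised, against 5.53%. By an adjusted p under 0.05 at any fold, 12 of 32 (37.5%) were lowered, against 23.7% of all genes, and 5 (15.6%) were raised, against 30.6%. The other 15 did not pass. With the methods' t-test, on 1 degree of freedom, 0 members and 0 genes in all passed an adjusted p under 0.05 (2 members and 993 genes passed 1.5-fold with an unadjusted p under 0.05), so these calls rest on the variance that limma shares across genes. These counts depend on the dye normalization, because with each array centred on its median in place of loess, 2 genes were lowered and 17 raised by the adjusted p, while 8.74% of all genes were lowered and 54.5% raised. Of the 32 genes, 20 were below 0 on both arrays and 9 above 0 on both, and of all 24022 genes 9510 were below and 10874 above. With median centring 9 of the 32 were below 0 on both arrays and 19 above, against 4064 and 16430 of all 24022 genes. In cultures measured in bulk, fewer cells of a type and less RNA per cell cannot be told apart.

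**Figure D1:**
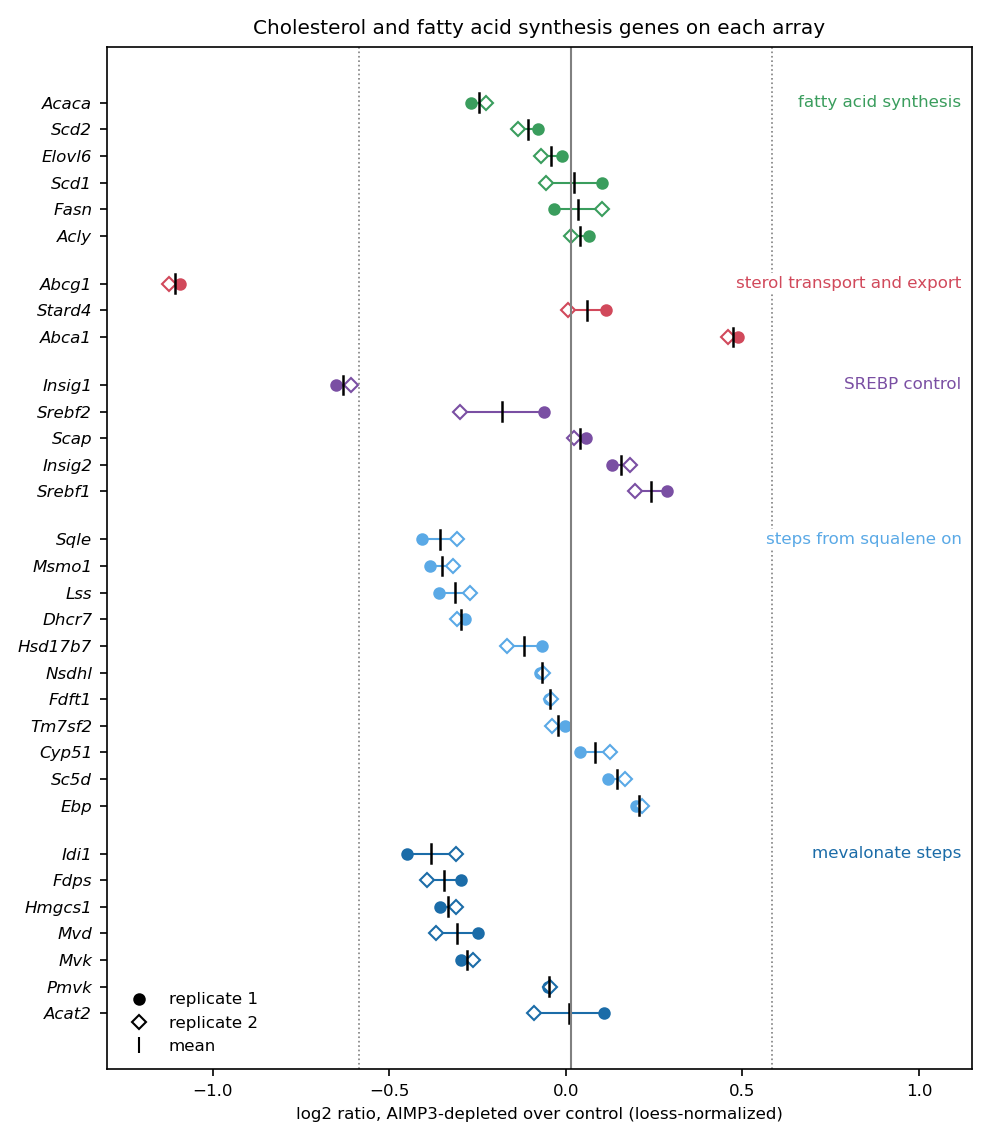
Log2 ratio (x axis, AIMP3-depleted over control) of each of the 32 genes, with replicate 1 as a filled circle, replicate 2 as an open diamond and the mean as a black bar; the grey line is the median of all genes (0.02) and the dotted lines mark 1.5-fold. *Abcg1* and *Insig1* lie beyond the left dotted line on both arrays, most genes of the mevalonate steps lie between -0.25 and -0.45, and the fatty acid genes other than *Acaca* cluster near 0.

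Most genes of the mevalonate steps were lowered. Of its 7 genes, 5 (71.4%) were lowered by the adjusted p and 0 raised, against 23.7% and 30.6% of all genes (28.4% and 31.5% in the brightest tercile of intensity), with a class median of -0.31 (-0.30 in replicate 1 and -0.31 in replicate 2). *Hmgcs1* encodes the cytosolic synthase that joins acetoacetyl-CoA with acetyl-CoA at the entry to the route. Its normalized intensity was 21613 and 19311 in the control channel of replicates 1 and 2, and 16884 and 15577 in the depleted channel. Both depleted values lay below both control values, without overlap. Here and below, both control values are readings of the same pool, so a lack of overlap does not measure the spread between cultures. The share of all genes without overlap is not given here. The log2 ratio was -0.33 ± 0.033 (SD, n = 2), a level of 79.4% of control, with an adjusted p of 0.00132 by limma.

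*Idi1*, the isomerase that interconverts the isoprene building units, had log2 ratios of -0.45 and -0.31 (mean -0.38, 76.8% of control, adjusted p = 0.00137 by limma). *Fdps*, which joins these units into farnesyl pyrophosphate, had -0.30 and -0.39 (mean -0.34, 78.8% of control, adjusted p = 0.0015 by limma). The order of the replicates was opposite in these genes, so neither array was the lower one throughout. *Mvd*, the decarboxylase that forms isopentenyl pyrophosphate, was the gene in the middle of the class. Its intensity was 1788 and 1781 in control and 1504 and 1379 in depleted cells, again without overlap, and its log2 ratios were -0.25 and -0.37 (mean -0.31, adjusted p = 0.00275 by limma). *Mvk*, the kinase that acts on mevalonate, had -0.30 and -0.26 (mean -0.28, adjusted p = 0.00256 by limma).

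The remaining members of the class did not pass. *Pmvk*, the kinase after *Mvk*, had -0.05 and -0.04 with its brightest probe, and -0.14 and -0.15 with its other probe. *Acat2*, a cytosolic thiolase that supplies acetoacetyl-CoA, had 0.11 on replicate 1 and -0.09 on replicate 2, with opposite signs and a 95% interval of -0.13 to 0.15 around the mean of 0.01. The 5 lowered enzymes had means within a narrow band, from -0.38 to -0.28. With median centring, however, 0 of the 7 genes were lowered by the adjusted p and 2 (28.6%) raised, against 8.74% and 54.5% of all genes.

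The enzymes from squalene on had values of both signs. Of 11 genes, 4 (36.4%) were lowered by the adjusted p, 2 (18.2%) were raised and 5 did not pass, against 28.4% lowered and 31.5% raised among all genes of the brightest tercile, with a class median of -0.07 (-0.07 and -0.06 on the arrays). *Sqle*, the monooxygenase that puts the first oxygen on squalene and is a rate-controlling step, had intensities of 29527 and 27090 in control and 22279 and 21884 in depleted cells. The depleted values were lower on both arrays and did not overlap with control. Its log2 ratio was -0.36 ± 0.07 (SD, n = 2), or 78.1% of control, with an adjusted p of 0.00132 by limma.

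*Lss*, the cyclase that folds oxidosqualene into lanosterol, had -0.36 and -0.27 (mean -0.31, adjusted p = 0.00206 by limma). *Msmo1*, an oxidase that takes methyl groups off the sterol ring, had -0.38 and -0.32 (mean -0.35, adjusted p = 0.00115 by limma). *Dhcr7*, the reductase that makes cholesterol from its immediate precursor, had -0.29 and -0.31 (mean -0.30, adjusted p = 0.00194 by limma). These genes lie at the beginning, in the middle and at the end of this stretch. The share lowered, 36.4%, was near the 28.4% of all genes in the brightest tercile, so no pattern along the route is read from these positions. With median centring 0 of the 11 genes were lowered by the adjusted p and 5 (45.5%) raised, against 8.74% and 54.5% of all genes. *Msmo1* was then at 0.03.

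The stretch also held genes that were raised. *Ebp*, the isomerase that shifts a double bond of the sterol ring, had intensities of 15962 and 15268 in control and 18302 and 17720 in depleted cells. Both depleted values were higher, and the log2 ratios of 0.20 and 0.21 (mean 0.21, 115% of control) passed with an adjusted p of 0.00845 by limma. *Sc5d*, the desaturase that acts after *Ebp* and before *Dhcr7*, had 0.12 and 0.17 (mean 0.14, 110% of control, adjusted p = 0.0347 by limma). *Sc5d* did not pass with the processed signals (adjusted p = 0.0842 by limma), without the filter on dim probes (0.0915) or with the authors' deposited values (0.055). In the order of the route, the enzymes next to each other at its end therefore had values of opposite sign, *Ebp* and *Sc5d* above 0 and *Dhcr7* below. The products of *Ebp* and *Dhcr7* are known to bind tamoxifen and related drugs, and whether the drug had a part in these values was not tested.

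The other enzymes of the stretch did not pass with their brightest probe. *Nsdhl*, a dehydrogenase of the demethylation complex and the gene in the middle of the class, had intensities of 1643 and 1526 in control and 1563 and 1459 in depleted cells, and log2 ratios of -0.07 and -0.06. *Hsd17b7*, its partner reductase, had -0.07 and -0.17 (mean -0.12, adjusted p = 0.0807 by limma). *Fdft1*, the squalene synthase that commits farnesyl pyrophosphate to sterols, had -0.05 and -0.04. *Tm7sf2*, a reductase of the sterol ring, was at -0.02 on average, and *Cyp51*, the demethylase of lanosterol, had 0.04 and 0.12 (mean 0.08, 95% interval -0.03 to 0.20). The 95% intervals of these 5 enzymes ran from as low as -0.23 (*Hsd17b7*) to as high as 0.20 (*Cyp51*), so that they were not shown to be unchanged.

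Promoter sequence is the feature shared by these genes that the choice of members did not use. SREBP binds sterol regulatory elements, and at sterol genes it is known to act beside NF-Y, which binds CCAAT boxes. RefSeq promoter windows on GRCm38.p6 were available for 25 of the 32 members (33 windows, as some genes have several starts) and not for *Abcg1*, *Fdft1*, *Fdps*, *Scd1*, *Scd2*, *Sqle* and *Stard4*. The 250 bases before the start were searched on both strands, overlaps allowed, for the letters TCACNCCAC and CCAAT. The windows below are those of enzymes that were lowered (*Hmgcs1*, *Mvk*, *Msmo1*) and of *Insig1*, then of *Fasn*, which did not pass, and *Ebp*, which was raised. Each window shown holds CCAAT, and the members without it are named after the sequences. Each is written 5′ to 3′ in the direction of transcription, with either motif in capitals on whichever strand it was read, so that CCAAT on the opposite strand appears as ATTGG.
Hmgcs1 promoter, chr13:119690101-119690350, plus strand: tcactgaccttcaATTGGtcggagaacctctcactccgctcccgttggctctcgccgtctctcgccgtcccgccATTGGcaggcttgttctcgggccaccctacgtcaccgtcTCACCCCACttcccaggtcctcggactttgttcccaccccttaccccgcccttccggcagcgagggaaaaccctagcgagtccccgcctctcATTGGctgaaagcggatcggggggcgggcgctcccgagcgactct
Mvk promoter, chr5:114444019-114444268, plus strand: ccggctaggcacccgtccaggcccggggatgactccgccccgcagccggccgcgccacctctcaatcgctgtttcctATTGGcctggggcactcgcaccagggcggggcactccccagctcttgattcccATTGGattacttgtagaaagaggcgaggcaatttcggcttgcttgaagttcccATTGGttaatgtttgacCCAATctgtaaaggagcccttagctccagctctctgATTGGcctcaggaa
Msmo1 promoter, chr8:64733579-64733828, minus strand: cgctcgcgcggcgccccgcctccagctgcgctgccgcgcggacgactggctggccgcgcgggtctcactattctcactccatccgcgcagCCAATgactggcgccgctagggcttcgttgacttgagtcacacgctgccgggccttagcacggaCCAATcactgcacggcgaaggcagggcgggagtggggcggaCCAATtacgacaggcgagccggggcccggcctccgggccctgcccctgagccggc
Insig1 promoter, chr5:28071162-28071411, plus strand: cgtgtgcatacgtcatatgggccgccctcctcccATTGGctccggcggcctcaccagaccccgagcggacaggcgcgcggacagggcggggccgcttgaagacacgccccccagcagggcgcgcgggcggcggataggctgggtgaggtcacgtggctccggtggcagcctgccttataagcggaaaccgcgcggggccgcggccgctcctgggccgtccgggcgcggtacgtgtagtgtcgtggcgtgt
Fasn promoter, chr11:120824548-120824797, minus strand: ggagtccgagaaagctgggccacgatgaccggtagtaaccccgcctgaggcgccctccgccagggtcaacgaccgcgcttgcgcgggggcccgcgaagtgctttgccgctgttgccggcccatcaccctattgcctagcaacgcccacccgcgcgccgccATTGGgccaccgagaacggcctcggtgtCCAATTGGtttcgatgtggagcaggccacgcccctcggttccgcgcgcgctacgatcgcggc
Ebp promoter, chrX:8193513-8193762, minus strand: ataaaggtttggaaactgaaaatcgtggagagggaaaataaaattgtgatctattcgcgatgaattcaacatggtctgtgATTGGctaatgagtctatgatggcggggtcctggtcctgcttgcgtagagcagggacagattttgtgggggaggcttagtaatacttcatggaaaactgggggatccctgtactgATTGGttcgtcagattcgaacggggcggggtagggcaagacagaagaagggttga

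The *Hmgcs1* window held the 1 match to TCACNCCAC among the members, 137 bases before the start, together with 3 CCAAT boxes, and 1.05% of 32851 promoters hold such a match. CCAAT was frequent, occurring in 20 of 33 member windows (60.6%) against 33.8% of all promoters and 35.1% of the promoters of tested genes. Counted by gene, 19 of 25 members (76%) held at least 1 CCAAT, against 40.1% of the tested genes with an entry. *Mvk* held 5, *Msmo1* and *Fasn* 3 each (on *Fasn*, 2 of them overlap on opposite strands), *Ebp* 2 and *Insig1* 1. No CCAAT was found in the windows of *Abca1*, *Acaca*, *Acat2*, *Acly*, *Elovl6* and *Scap*. Among genes of fatty acid synthesis with a window, *Fasn* alone held it. By direction, 8 of 9 lowered, 4 of 5 raised and 7 of 11 other members with a window held the box. These groups are too small to say whether it differs by direction, and *Insig2* counts as raised by its brightest probe only. A match to these letters is a description of the sequence and not evidence of binding.

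Among the 5 SREBP control genes, *Insig1* stood apart. *Insig1* encodes the sterol-sensing anchor that retains Scap and is itself a sensitive SREBP target. Its intensity fell from 1349 to 858 in replicate 1 and from 1230.1 to 807 in replicate 2. The depleted values were below the control values without overlap, with log2 ratios of -0.65 and -0.61. The mean of -0.63 ± 0.031 (SD, n = 2; 95% interval -0.74 to -0.52) corresponds to 64.6% of control, with an adjusted p of 0.000129 by limma, and 0.566% of all genes had a lower ratio. With median centring the log2 ratio was -0.44, the same direction at less than 1.5-fold.

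*Insig2*, the second anchor, which is known to be less dependent on SREBP, had 0.13 and 0.18 with its brightest probe (mean 0.16, adjusted p = 0.0264 by limma). Its other probe, designed on another transcript, had -0.15 and -0.11, and the mean of both probes was 0.01, so no direction can be given for the gene. The brightest probe also missed the threshold with the processed signals (adjusted p = 0.0681 by limma) and without the filter on dim probes (0.0751). *Srebf1* had intensities of 335 and 319 in control and 409 and 365 in depleted cells, a mean log2 ratio of 0.24 (0.29 and 0.20, 118% of control, adjusted p = 0.00601 by limma), and did not pass with the processed signals (adjusted p = 0.0588 by limma). *Srebf2* had -0.06 and -0.30, the widest gap between arrays among the members (SD 0.17), and did not pass (mean -0.18, adjusted p = 0.0544 by limma, or 0.0401 with the stricter filter on dim probes). Its other probe had 0.04 and 0.02, so the direction of *Srebf2* is also unsettled. *Scap*, the escort and the gene in the middle of the class, had intensities of 10831 and 10388 in control and 11267 and 10556 in depleted cells, with log2 ratios of 0.06 and 0.02.

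The sterol exporters moved in opposite directions. *Abcg1*, an exporter that hands cholesterol to lipoprotein particles, had intensities of 5052 and 4629.8 in control and 2367 and 2126 in depleted cells. The depleted values were less than 50% of the control values on both arrays, and the log2 ratios were -1.09 and -1.12. The mean of -1.11 ± 0.02 (SD, n = 2; 95% interval -1.22 to -1) corresponds to 46.4% of control, with an adjusted p of 3.41e-05 by limma. This was the lowest ratio of the 32 genes, and 0.05% of all genes were lower. *Abca1*, which loads cholesterol onto apolipoprotein, had intensities of 815 and 729.5 in control and 1141 and 1003 in depleted cells. It was higher on both arrays without overlap, with log2 ratios of 0.49 and 0.46 (mean 0.47 ± 0.019, SD, n = 2), 139% of control, adjusted p = 0.00034 by limma. That is the highest ratio of the 32 genes and lies below 1.5-fold, though with median centring it was 0.66, above it. *Stard4*, a carrier of sterol between membranes inside the cell and the gene in the middle of the class, had intensities of 1609 and 1494 in control and 1740.3 and 1500.1 in depleted cells. Its log2 ratios were 0.11 and 0.01, and those of its other probe -0.09 and -0.09, so that neither direction holds for both probes.

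**Figure D2:**
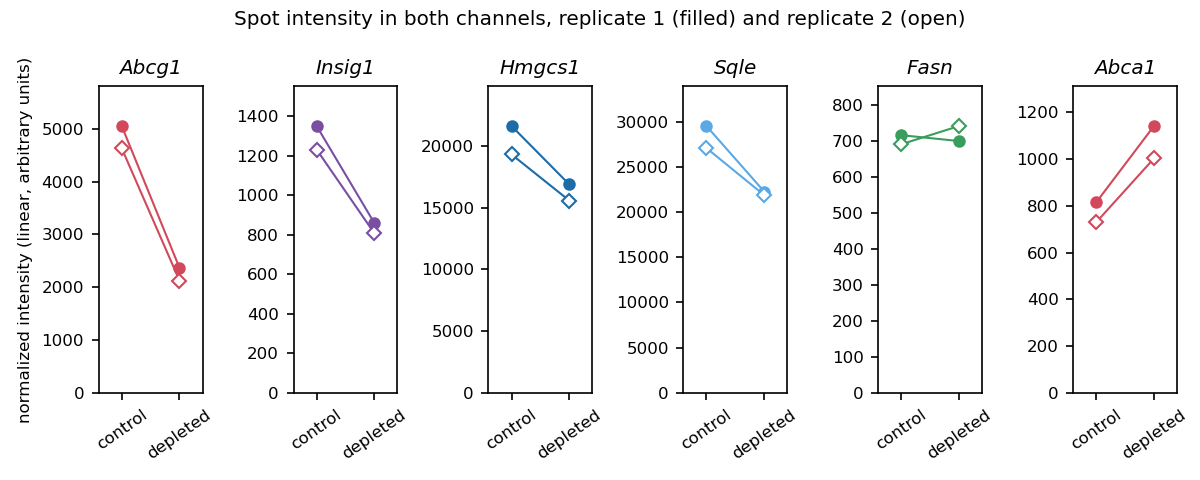
Normalized spot intensity (y axis, linear, arbitrary units, each panel on its own scale from 0) in the control and depleted channels for 6 genes, replicate 1 filled and replicate 2 open, with a line joining the channels of 1 array. Both lines fall for *Abcg1*, *Insig1*, *Hmgcs1* and *Sqle* and rise for *Abca1*, while those of *Fasn* run in opposite directions.

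Most genes of fatty acid synthesis did not pass the test. Of 6 genes, 1 (16.7%) was lowered by the adjusted p, a share near the 23.7% of all genes, 0 were raised and 5 did not pass, with a class median of -0.01 (-0.02 and -0.06 on the arrays). *Acaca*, the acetyl-CoA carboxylase that makes malonyl-CoA in the committed step, had intensities of 11846 and 11141 in control and 9840 and 9532 in depleted cells. The depleted values did not overlap with control, and the log2 ratios were -0.27 and -0.23 (mean -0.25, 84.3% of control, adjusted p = 0.00438 by limma). All 3 probes of *Acaca* were below 0 on both arrays, the others with means of -0.30 and -0.25, yet median centring put the brightest probe at 0.01. Under that setting 0 genes of the class were lowered and 5 (83.3%) raised by the adjusted p, against 8.74% and 54.5% of all genes.

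*Fasn*, the synthase that builds palmitate from malonyl-CoA, had intensities of 716 and 691 in control and 699.6 and 741 in depleted cells. These values overlap, and the log2 ratios of -0.03 and 0.10 have opposite signs (mean 0.03, 95% interval -0.09 to 0.16). *Acly*, which supplies cytosolic acetyl-CoA from citrate, had 0.07 and 0.01. *Scd1* and *Scd2* encode the desaturases that make oleate and palmitoleate. *Scd1* had 0.10 and -0.06, and *Scd2* had -0.08 and -0.14 (mean -0.11, adjusted p = 0.0866 by limma). *Elovl6*, the elongase that takes palmitate to stearate, had -0.01 and -0.07. The 95% intervals of these 5 genes all include 0 and reach no further than -0.22 on the lower side. No test of the difference between the classes was made, as genes of a class are not replicates.

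More than 1 probe was printed for 11 of the 32 genes, and 43 of their 44 probes in all were tested, the exception being a dim probe of *Fdft1*. The signs of the probe means differed for *Insig2*, *Srebf2* and *Stard4*, and were the same for *Mvk*, *Acaca*, *Hsd17b7*, *Nsdhl*, *Pmvk*, *Tm7sf2* and *Acly*. For *Hsd17b7*, *Nsdhl*, *Pmvk* and *Tm7sf2* the dimmer probe gave the lower ratio, at -0.23, -0.22, -0.15 and -0.16 respectively. With the mean of all probes of a gene in place of the brightest, 14 members (43.8%) were lowered by the adjusted p and 4 (12.5%) raised. Of all genes, 23.8% were lowered and 30.2% raised under that setting. *Hsd17b7* (-0.17, adjusted p = 0.0143 by limma) and *Nsdhl* (-0.15, adjusted p = 0.0276 by limma) then passed as lowered, *Insig2* no longer passed as raised, and the median of the steps from squalene on was -0.15.

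**Figure D3:**
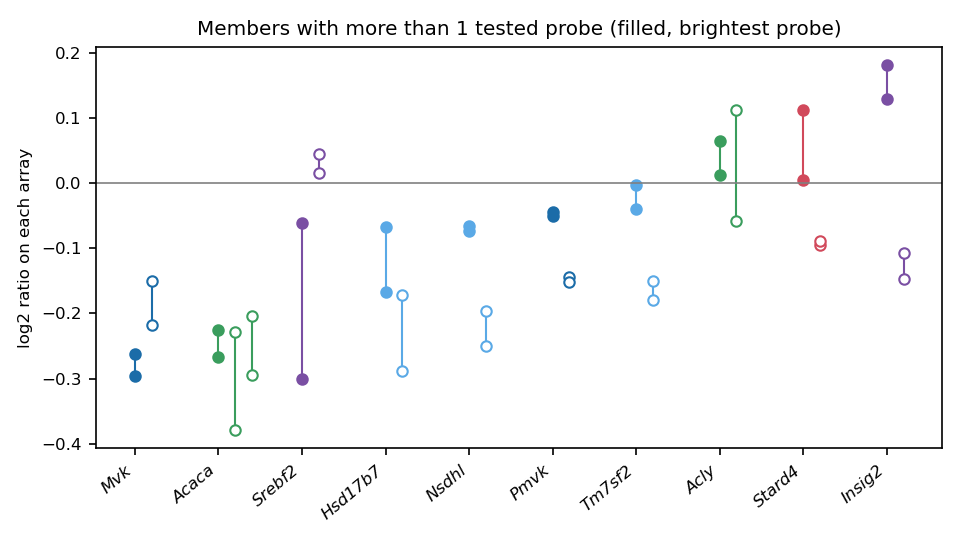
Log2 ratio (y axis) of every tested probe of the 10 genes with more than 1, 2 points per probe for the 2 arrays, filled for the brightest probe and open for the others. The probes of *Insig2*, *Srebf2* and *Stard4* lie on opposite sides of 0, and the 3 probes of *Acaca* all lie below it.

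The dye normalization bears on the class medians more than any other choice that was tried, and most members are bright. Of the 32 genes, 21 belong to the brightest tercile of all genes, 10 to the middle and 1 to the dimmest tercile. Median centring put the median of all genes at 0.18, and that of the brightest tercile at 0.29, against 0.01 after loess. With it the mevalonate median was -0.02, that of the steps from squalene on 0.13, SREBP control 0.30, transport and export 0.26 and fatty acid synthesis 0.27. Relative to the median of all genes in its own tercile of intensity, a scale chosen after the values were seen, the mevalonate median was -0.31 with median centring and -0.33 with loess, and all 7 genes were negative on both. On that scale the median of the steps from squalene on was -0.10 with median centring and -0.09 with loess, and that of fatty acid synthesis 0.01 and -0.02. This scale takes out most of what differs between loess and median centring, so that like values under both are no independent check. With the processed signals or the authors' values 6 of the 7 genes were negative on it. Of the 7 mevalonate genes *Pmvk* alone changed sign between both normalizations, to 0.22 with median centring.

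**Figure D4:**
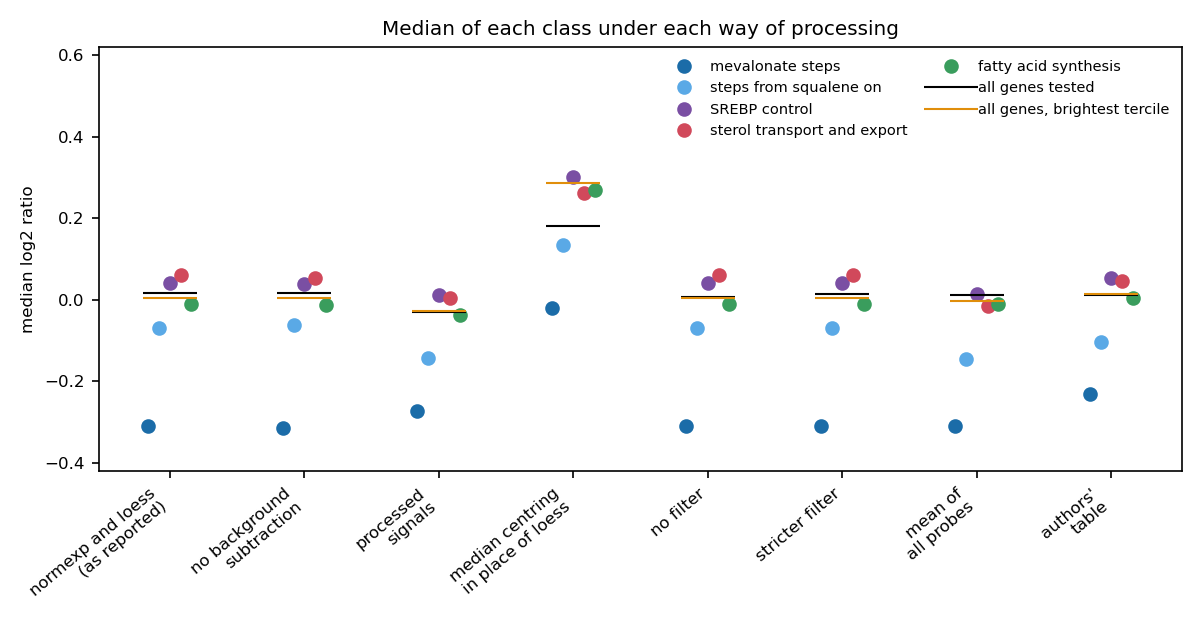
Median log2 ratio (y axis) of each class of genes (coloured points) under each way of processing (x axis), with the median of all genes (black bar) and of the brightest tercile (orange bar). The mevalonate points lie lowest of the 5 classes under every setting shown, and with median centring all points and both bars move up.

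Genes of neighbouring pathways were read from lists that hold none of the 32 members. Their counts by the adjusted p are to be set against 23.7% lowered and 30.6% raised among all genes tested, and several lie near those shares. Other SREBP targets had a median of -0.16, and of 13 genes 7 were lowered and 2 raised by the adjusted p. *Rdh11*, a retinal reductase, had log2 ratios of -0.71 and -0.84 (mean -0.77, 58.5% of control, adjusted p = 9.71e-05 by limma). *Me1*, the malic enzyme that makes NADPH for lipid synthesis, had 0.72 and 0.88 (mean 0.80, 174% of control, adjusted p = 0.00011 by limma). The genes past 1.5-fold in this list therefore differed in sign. LXR and its other targets had a median of 0.16, with 1 of 7 lowered and 4 raised. The gene farthest from 0 was *Pltp*, a phospholipid transfer protein, at 0.48, while *Nr1h3*, the gene of LXR alpha, was at 0.30 and *Nr1h2*, that of LXR beta, at -0.07. The median of the list had the sign of *Abca1* and not that of *Abcg1*.

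Genes that process SREBP or degrade sterol enzymes had a median of 0.12 (3 of 7 lowered, 2 raised). Both proteases that release SREBP were lowered, *Mbtps1* at -0.22 and *Mbtps2* at -0.18. Sterol uptake, storage and intracellular transport had a median of 0.04 (1 of 10 lowered, 4 raised), and its farthest gene was the lipoprotein receptor *Vldlr* at -0.54. The isoprenoid branches that leave the route at farnesyl pyrophosphate had a median of -0.12 (5 of 10 lowered, 1 raised), and the farthest gene was *Pggt1b* at 0.24, a subunit of the enzyme that attaches geranylgeranyl groups. These branches draw on the product of *Fdps*, and their median lay between those of both stretches of sterol synthesis.

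Fatty acid elongation, activation and storage had a median of -0.16, and of the 11 genes tested 6 were lowered and 1 raised. The raised gene was *Elovl1*, an elongase of very long chains, with 0.71 and 0.66 (mean 0.69, adjusted p = 9.88e-05 by limma). Fatty acid oxidation had a median of 0.10, with 2 of 11 lowered and 5 raised. *Etfdh*, which passes electrons from oxidation to the respiratory chain, had 0.64 and 0.81 (mean 0.72, adjusted p = 0.00017 by limma). With median centring the median of all genes was 0.18 in place of 0.02, so the signs of lists with medians this near 0 are relative to loess.

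**Figure D5:**
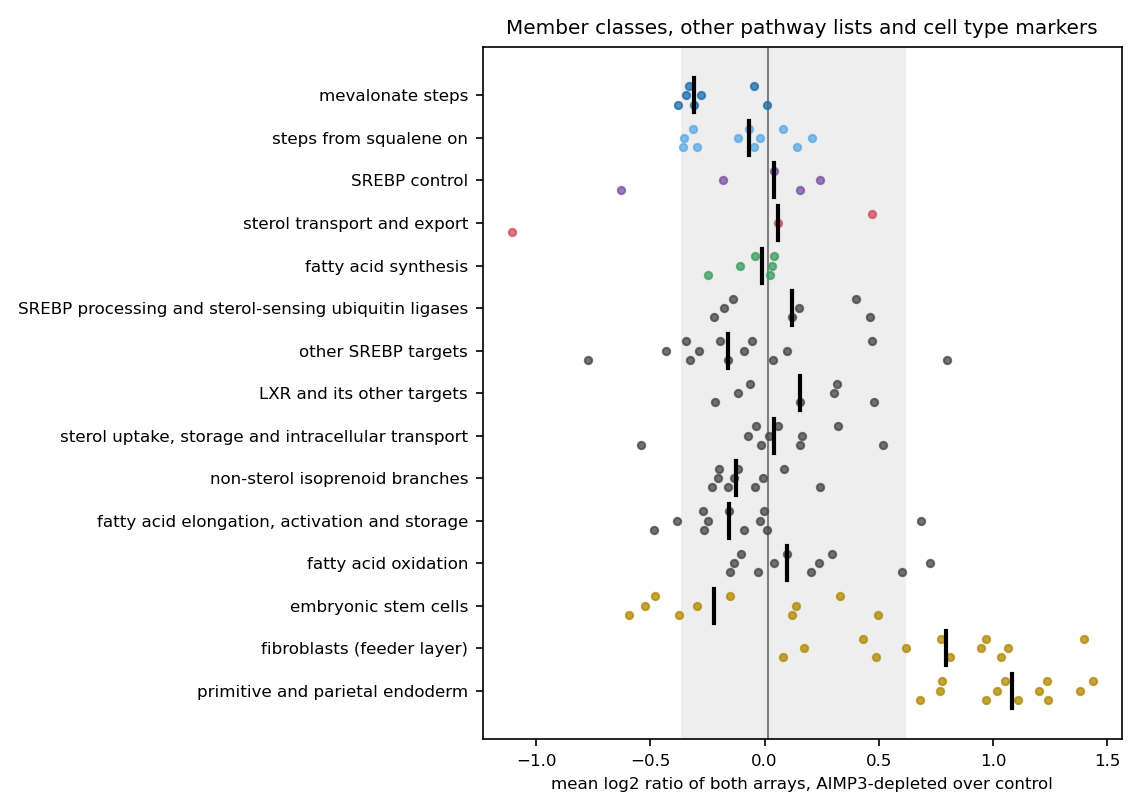
Mean log2 ratio of both arrays (x axis) of every tested gene in the 5 classes, 7 other pathway lists and 3 lists of cell type markers (1 point per gene, vertical offsets for visibility only), with the median of a list as a black bar and the 5th to 95th percentile of all genes in grey (-0.36 to 0.62). Of the 32 genes *Abcg1*, *Insig1* and *Idi1* lie left of the grey band, as do some genes of the other lists, and the endoderm markers and most fibroblast markers lie right of it.

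Markers of cell types moved in the same comparison. All 10 markers of embryonic stem cells were measured, with a median of -0.22 (6 lowered and 3 raised by the adjusted p), and *Pou5f1* was at -0.48. Their summed intensity was 263236 to 273503 in control and 296237 to 302558 in depleted cells, a sum in which the bright, raised *Dppa5a* has a large share. All 12 markers of primitive and parietal endoderm were raised past 1.5-fold, with a median of 1.08 and a summed intensity of 182240 to 192236 in control and 390207 to 398373 in depleted cells. Of 13 fibroblast markers 12 were tested, and 8 were raised past 1.5-fold, with a median of 0.79 and a sum of 25118 to 25985 in control and 48674 to 50139 in depleted cells. Every tested marker was well above background in the control channel on both arrays. The part of a changed mixture of cells in the values of the 32 genes was not tested.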

How the data were processed

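Gene expression was measured on 2 Agilent 2-colour arrays. The authors deposited the scanner output of Feature Extraction (version 11.5.1.1 per the file headers, whereas the methods give another), which holds the intensity of each spot and its local background, not normalized, and processed signals with a log10 ratio that the authors deposited alongside. Log2 ratios that the authors deposited in a separate table were equal to the scanner's log ratio plus a constant within 0.01 for 99.8% of tested probes on each array. Over all 55681 probes the shares were 79.0% in replicate 1 and 78.7% in replicate 2. The column medians were 0.09 and 0.11, and the centring step is not stated. No column of per-sample values was left out (0).

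Median signals were used, since the files hold no mean signal. Background was corrected with normexp (offset 50) and arrays were normalized by loess in limma 3.58.1 (R 4.3.3, jsonlite 2.0.0 and data.table, version 1.17.8). Control spots and outlier spots (215 and 227) were left out. A probe was kept where at least 1 channel of each array was well above background (33012 of 55681 probes), and the brightest stands for a gene. Names come from RefSeq genes on GRCm38.p6, matched by accession. The mean log2 ratio was tested against 0 with lmFit and eBayes (1 residual and 5.29 prior degrees of freedom), with Benjamini-Hochberg adjustment over 24022 genes. All 32 members are named, as is the gene of a neighbouring list that passes 1.5-fold or else lies farthest from 0, and *Nr1h3*, *Nr1h2*, *Mbtps1*, *Mbtps2*, *Pou5f1* and *Dppa5a* were added after their values were seen. Some genes that this rule names are not reported here. The members and lists were chosen with earlier results of these data known. Steps were tested on simulated data. The median signal over background was 2.68 to 3.31, and with 2 arrays their number limits the precision. Alternatives are given with the closing section.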

Additional observations from a re-analysis of the deposited data

How the results depend on the processing

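With 2 arrays, 1 slide, unswapped dyes and 1 control pool, small ratios rest on the dye normalization. No paired analysis was possible because the depleted replicates are the 1 labelled group and share 1 control pool. Against 1328 raised and 190 lowered genes at 1.5-fold, median centring gave 2827 and 64, the authors' deposited values 2130 and 617, the processed signals 771 lowered, the methods' t-test 865 raised (and 0 genes after Benjamini-Hochberg adjustment), a 2-fold threshold 281 and 17, and the adjusted p alone 7358 and 5686. Members raised were 1 with median centring and 5 by the adjusted p, in place of 0. Members lowered were 1 with median centring, 1 at 2-fold and 12 by the adjusted p, in place of 2. The mevalonate median of -0.31 became -0.27 with processed signals, -0.0212 with median centring and -0.23 with the authors' values. The median of the steps from squalene on, -0.07, became -0.0631 without background subtraction, -0.14 with processed signals, -0.15 with the mean of probes, -0.10 with the authors' values and -0.10 with median centring relative to the tercile of intensity (2 changes at once, chosen after seeing the data; the tercile scale with loess gave -0.09), and reversed to 0.13 with median centring. The SREBP control median of 0.04 became 0.0124 with processed signals, 0.0145 with the mean of probes and 0.30 with median centring. Median centring moved transport and export from 0.06 to 0.26 and fatty acid synthesis from -0.01 to 0.27. Among members called by the adjusted p it reversed *Msmo1* to 0.0311 and *Acaca* to 0.0145. Members that had not passed also turned from negative to positive, namely *Scd2*, *Elovl6*, *Tm7sf2*, *Pmvk*, *Fdft1*, *Nsdhl*, *Hsd17b7* and *Srebf2*. Under the alternatives run, *Abcg1* ranged from -1.17 to -0.89, *Insig1* from -0.71 to -0.44 and *Abca1* from 0.47 to 0.66. Leaving out each replicate in turn, a value with no test, gave 1323 to 1398 genes raised, 199 to 253 lowered, 0 to 0 members raised and 2 to 2 lowered. It gave medians of -0.31 to -0.30 for the mevalonate steps, -0.0674 to -0.0649 from squalene on, 0.0232 to 0.0569 for SREBP control, 0.00574 to 0.113 for transport and export, and -0.0636 to -0.0227 for fatty acid synthesis. Why loess and median centring differ was not tested.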
